A study of Mus musculus with 4 samples.

Results

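The genes described here are Cyp11a1, which encodes the enzyme that begins steroid hormone synthesis, and 7 genes whose products work with it or act on the hormones made from it. They are Star, Stard3, Tspo, Fdx1, Fdxr, Hsd11b1 and Nr3c1. The set was chosen by the high Cyp11a1 signal on arrays of NKT-modulated dendritic cells (DC), where NKT stands for natural killer T cells, set against immature DC, so the Cyp11a1 values are a description here and carry no test. The partners share a pathway with it, but they too were chosen with results of these data known, so their tests are not independent of that choice. Of the 8 genes, 7 were named by the array annotation, through 13 probe sets. No probe set used here carried Fdxr as its only symbol, and this gene is not analysed here. In all, 12393 genes were named by 1 symbol. RNA was measured on 4 Affymetrix arrays, 2 of NKT-modulated DC and 2 of immature DC. Both groups were bone marrow dendritic cells of C57BL/6 mice, antigen-presenting cells obtained from marrow, and no age, dose or time is given in the labels. The series' design text takes the RNA from cells bearing CD11c, an integrin of DC. The design text describes more replicates than the 2 arrays per group analysed here, differs from the labels on the rounds of amplification, and names an array type known to carry more probe sets than the table holds. The labels do not say how the NKT cells were added or removed, nor whether the 2 arrays of a group came from separate cultures, so p-values cover array-to-array spread alone, and that spread could be technical.

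CYP11A1 is a mitochondrial cytochrome P450 that cuts the side chain from cholesterol and leaves pregnenolone, the precursor of the other steroid hormones. Its electrons pass from NADPH through ferredoxin reductase, encoded by Fdxr, and ferredoxin, encoded by Fdx1. Cholesterol has to reach the inner mitochondrial membrane first, a step in which STAR, the late endosomal protein STARD3 and the outer membrane protein TSPO have been implicated. The enzyme is best known from the adrenal cortex, gonads and placenta, and it has also been described in mouse type 2 helper T cells.

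Cyp11a1 (probe set 1448804_at) had signals of 2141 and 2105 on the NKT-modulated arrays, against 1.78 and 4.98 on the immature arrays. Signals are the deposited linear intensities. The NKT-modulated arrays differed little from each other, and both lay far above both immature arrays, whose signals fell below the lower quartile of all probe sets (26.9 to 29.8 over the 4 arrays). On the scale of log2(signal + 16) after quantile normalization, the difference NKT-modulated minus immature was 6.81 ± 0.19 (standard error, 2 arrays in each group; later differences have the same form). That size depends on the pseudocount of 16, since the immature signals were smaller than it. With a pseudocount of 1 the difference was 9.04, and with 64 it was 5.04.

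RefSeq lists 2 starts for Cyp11a1 in the GRCm38.p6 build, both on the plus strand. The 250 bases before each are shown because Cyp11a1 is the gene with the large difference, and because a nuclear receptor half-site near its start is a textbook feature of this promoter. Capitals mark matches to a searched motif. One motif searched was the nuclear receptor half-site AGGTCA. Its extended form AAGGTCA, which contains the shorter motif, was searched as well. The others were TGACGT for the core of the cAMP response element and AGATAA for GATA factors. All were searched on both strands.
Cyp11a1 upstream start, chr9:57997774-57998023: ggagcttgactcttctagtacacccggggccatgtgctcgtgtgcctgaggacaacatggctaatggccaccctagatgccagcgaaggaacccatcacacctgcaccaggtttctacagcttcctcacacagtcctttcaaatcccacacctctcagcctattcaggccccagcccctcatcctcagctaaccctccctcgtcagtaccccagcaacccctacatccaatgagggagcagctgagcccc
Cyp11a1 downstream start, chr9:58014702-58014951: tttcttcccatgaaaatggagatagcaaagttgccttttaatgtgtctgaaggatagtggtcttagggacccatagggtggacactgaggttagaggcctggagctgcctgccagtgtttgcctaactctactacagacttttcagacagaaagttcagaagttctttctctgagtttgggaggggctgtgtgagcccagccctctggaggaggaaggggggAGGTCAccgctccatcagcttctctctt
The downstream window held 1 match, AGGTCA on the plus strand from 28 to 23 bases before the start, and the upstream window held 0. AGGTCA occurred in 14.0% of the 32851 windows of this length in the table, AAGGTCA in 4.08%, TGACGT in 6.47% and AGATAA in 9.99%. A match describes letters and not binding, and the array does not tell which start was used. Of the other members, Stard3, Fdx1, Fdxr and Hsd11b1 have a window in the table that was searched, and these 4 windows held 0 matches.

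**Figure D1:**
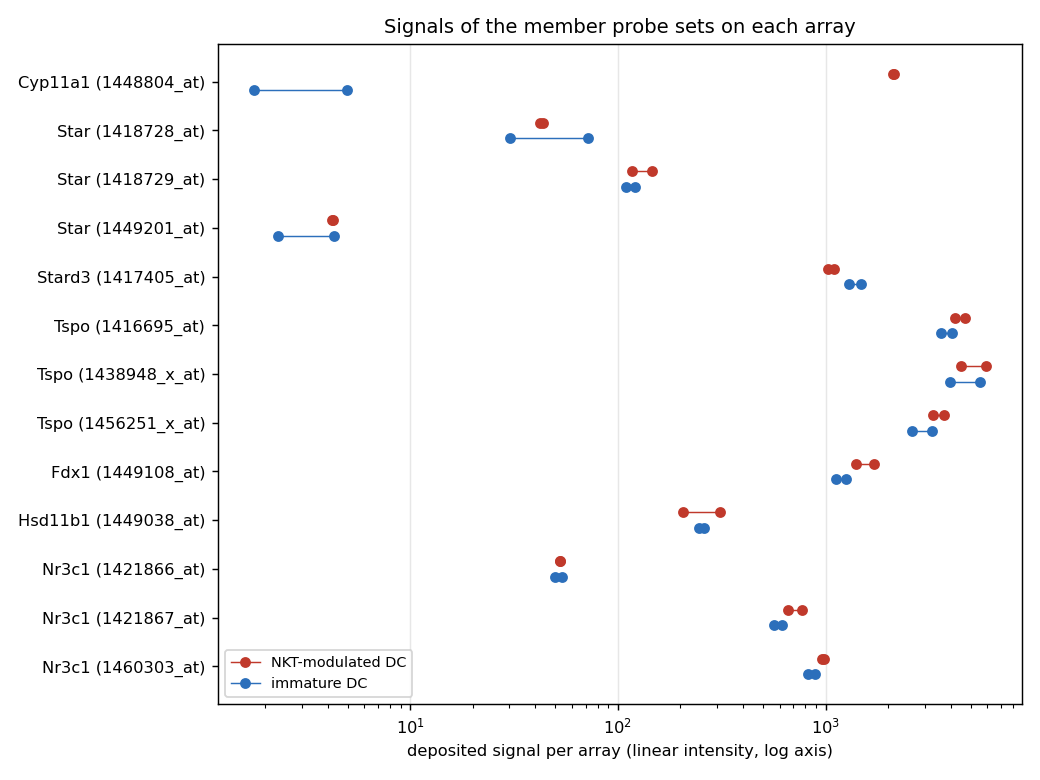
Deposited signal of each member probe set on each array (log axis, linear intensity units). Each point is 1 array and a line joins the 2 arrays of a group, NKT-modulated DC drawn above immature DC; points that coincide look like 1. Cyp11a1 lies at 2141 and 2105 on the NKT-modulated arrays against 1.78 and 4.98 on the immature arrays, and no partner's groups lie nearly as far apart.

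The partners did not share a change of that size. Cyp11a1 was chosen for its rise and lay below the lower quartile in immature DC. Fdx1, Stard3 and Tspo were already bright there (Fdx1 1126 and 1251), and whether this limited a rise was not tested. Star 1449201_at also lay below the lower quartile there (4.28 and 2.31) and was not called. Of the 12 partner probe sets, for 6 genes, 1 passed the test as higher in NKT-modulated DC (Fdx1), and 0 passed as lower. Over all 22626 probe sets tested, 5.36% were called higher and 5.7% lower (limma, Benjamini-Hochberg adjusted p under 0.05). At an unadjusted p under 0.05, 4 of the 12 were higher and 0 lower, against 10.9% higher and 14.3% lower of all probe sets. These were Fdx1, Tspo 1456251_x_at, and Nr3c1 1460303_at and 1421867_at. Probe sets of the same gene are not independent of each other. The partner differences ran from -0.27 to 0.48 on the log2 scale, with a median of 0.21, while the median over all probe sets was -0.03. The highest upper 95% bound of any partner was 1.80-fold, for a Star probe set. Signals of the 2 groups did not overlap for 6 of the 12 partner probe sets, and for 53.5% of all probe sets. Which share of all calls was higher turned with the scaling. It was 48.5% as reported, 36.6% without normalization and 58.3% after median scaling.

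Fdx1, the small iron-sulphur protein that hands electrons to CYP11A1 and other mitochondrial P450 enzymes, had signals of 1702 and 1401 in NKT-modulated DC, against 1126 and 1251 in immature DC. Both NKT-modulated arrays lay above both immature arrays. The difference was 0.48 ± 0.11, or 1.39-fold with a 95% interval of 1.16 to 1.67 (limma adjusted p = 0.0432). This call lay close to the threshold. It was lost in 7 of 11 alternatives, among them each of the 4 that leave out 1 array, with adjusted p from 0.0212 to 0.198 over all 11. The difference itself stayed between 0.35 and 0.59.

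None of the genes of cholesterol import was called, and with 2 arrays per group this does not show that they were unchanged. Star encodes the protein that in steroidogenic tissue makes cholesterol available to the inner mitochondrial membrane, and 3 probe sets measure it. The brightest, 1418729_at, had signals of 146 and 117 in NKT-modulated DC, against 121 and 109 in immature DC, so the groups overlapped in signal. On the normalized scale they did not, at 7.40 and 7.17 against 7.07 and 6.87. The difference of this probe set was 0.31 ± 0.22 (adjusted p = 0.456), with an interval of 0.856- to 1.80-fold. Probe set 1418728_at read 43.7 and 42.2 in NKT-modulated DC, against 71.7 and 30.4 in immature DC, with both NKT-modulated arrays between the immature ones, and a difference of -0.12 ± 0.36 (adjusted p = 0.889). The last, 1449201_at, read 4.25 and 4.19 in NKT-modulated DC, against 4.28 and 2.31 in immature DC and lay below the lower quartile of all signals on every array. The 3 probe sets thus differ in brightness and in the sign of a small difference, and none was called.

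Stard3 encodes a late endosomal protein with the same cholesterol-binding START domain as STAR. It had signals of 1104 and 1026 in NKT-modulated DC, against 1476 and 1303 in immature DC. The NKT-modulated arrays were the lower ones, without overlap, and the difference was -0.27 ± 0.14 (adjusted p = 0.302; interval 0.657- to 1.05-fold). It was the only partner with a negative difference for its brightest probe set.

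Tspo, the translocator protein of the outer mitochondrial membrane, was measured by 3 bright probe sets. Probe set 1416695_at read 4705 and 4189 in NKT-modulated DC, against 4050 and 3583 in immature DC, a difference of 0.21 ± 0.12 (adjusted p = 0.350). Probe set 1456251_x_at read 3720 and 3295 in NKT-modulated DC, against 2620 and 3270 in immature DC, a difference of 0.26 ± 0.09 (adjusted p = 0.143). These did not overlap between groups. Probe set 1438948_x_at read 5916 and 4509 in NKT-modulated DC, against 3956 and 5520 in immature DC, overlapped, and had a difference of 0.11 ± 0.16 (adjusted p = 0.749). The suffix x marks probe sets whose probes may also match other transcripts. All 3 differences were positive and small, with upper bounds of at most 1.42-fold, and 1456251_x_at was called only after median scaling, at adjusted p = 0.0464.

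**Figure D2:**
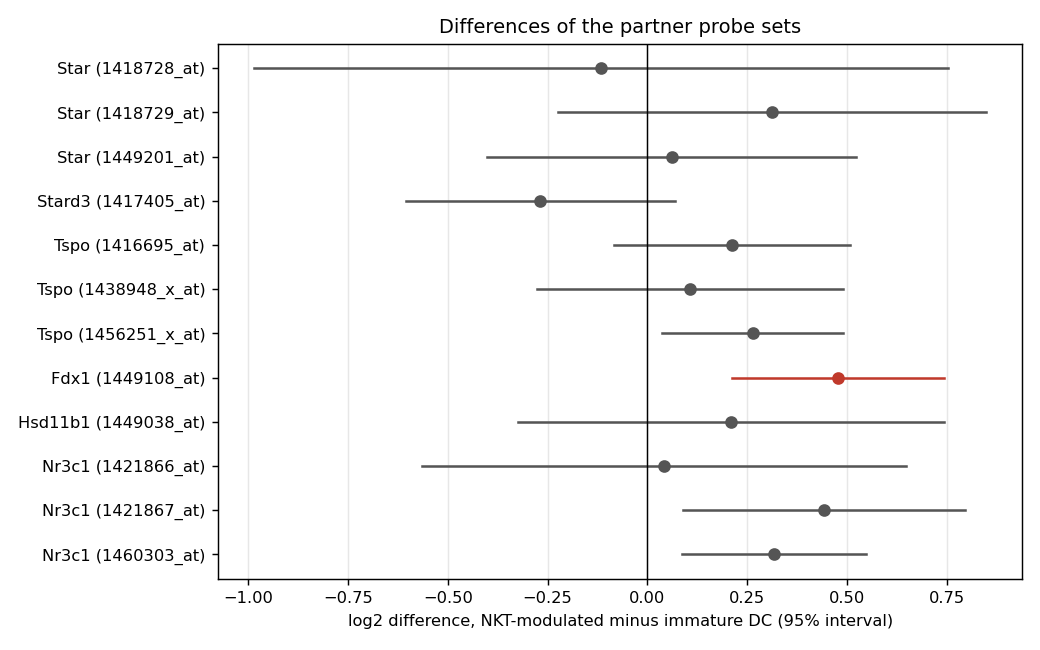
Log2 difference of each partner probe set, NKT-modulated minus immature DC, as a point with its 95% interval from limma (2 arrays per group). The red point, Fdx1 at 0.48, is the one that passed the adjusted threshold; Stard3 lies at -0.27 and Cyp11a1, at 6.81, is off this axis and not drawn.

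The remaining members act on glucocorticoids, hormones that lie downstream of pregnenolone. Hsd11b1 encodes the enzyme that turns inactive 11-dehydrocorticosterone into corticosterone in rodents. Its signals were 311 and 205 in NKT-modulated DC, against 260 and 246 in immature DC. By signal, one NKT-modulated array was the highest of the 4 and the other the lowest. On the normalized scale the groups also overlapped, and the difference of 0.21 ± 0.22 (adjusted p = 0.635) was no larger than its standard error. H6pd, which supplies NADPH to this enzyme in the endoplasmic reticulum, read 228 and 311 in NKT-modulated DC, against 468 and 376 in immature DC, with a difference of -0.43 ± 0.23 (adjusted p = 0.319). Hsd11b2, whose enzyme runs the opposite reaction, read 182 and 163 in NKT-modulated DC, against 248 and 268 in immature DC, with -0.33 ± 0.16 (adjusted p = 0.292). H6pd and Hsd11b2 were named after their values were seen.

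Nr3c1 encodes the glucocorticoid receptor. Its brightest probe set, 1460303_at, had signals of 986 and 957 in NKT-modulated DC, against 823 and 893 in immature DC. Probe set 1421867_at read 772 and 662 in NKT-modulated DC, against 614 and 564 in immature DC. Both sets were higher on the NKT-modulated arrays without overlap, by 0.32 ± 0.09 and 0.44 ± 0.15, and neither passed (adjusted p = 0.0925 and adjusted p = 0.119). The dim 1421866_at read 52.6 and 52.5 in NKT-modulated DC, against 54.0 and 49.8 in immature DC, a difference of 0.04 ± 0.25 (adjusted p = 0.949). With 2 arrays per group the intervals of the 3 probe sets reach from 0.676- to 1.74-fold.

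**Figure D3:**
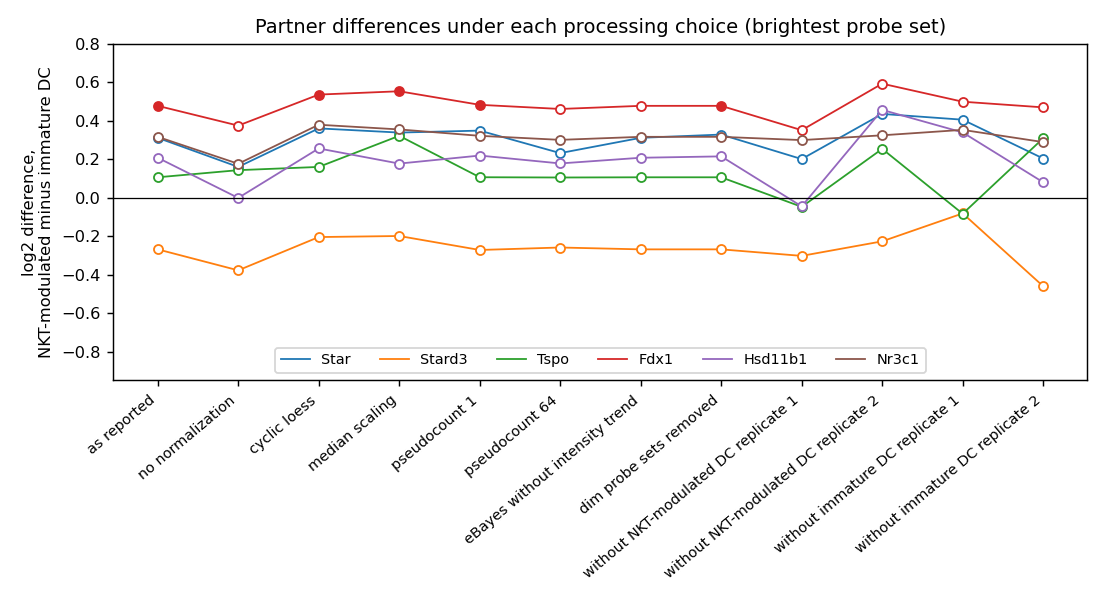
Log2 difference, NKT-modulated minus immature DC, of the brightest probe set of each partner under the reported setting and 11 alternatives; filled points passed at an adjusted p under 0.05. Fdx1 stays between 0.35 and 0.59 and is filled in 5 of the 12 settings, and no other gene has a filled point.

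The wider pathway was read through 6 lists, with each gene represented by its brightest probe set. Of their 104 measured genes, 13 were called higher and 12 lower, with a median difference of 0.01. Of all 12393 named genes, 5.99% were called higher and 6.87% lower, with a median of -0.04. Genes that bring cholesterol to mitochondria included more falls than rises. Among its 17 measured genes were 0 rises and 5 falls, and the median was -0.04. Stard4, a soluble sterol carrier of the START family, had signals of 415 and 453 in NKT-modulated DC, against 1122 and 1069 in immature DC, and fell by 1.14 ± 0.13 (adjusted p = 0.00381). Osbpl2, an oxysterol-binding protein relative, fell by 0.72 ± 0.11, Scarb1, a receptor for high-density lipoprotein, by 0.63 ± 0.12, and Dbi, the acyl-CoA-binding protein that is also a TSPO ligand, by 0.49 ± 0.09. The other gene called lower was Lipe, a hormone-sensitive lipase, with -0.71 ± 0.17 (adjusted p = 0.0484), named because it completes the count. Stard4, Dbi, Scarb1 and Osbpl2 were lower in every alternative. Dbi lost its call in 6 of 11, Scarb1 in 4, Osbpl2 in 3 and Stard4 in 0. Lipe, whose call lay close to the threshold, was not followed through the alternatives.

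Other mitochondrial P450 enzymes and electron carriers gave 0 rises and 2 falls among 8 genes, and the median was -0.07. Among all named genes, 5.99% were called higher and 6.87% lower. The share of falls in this list lay above the latter, but it rests on 2 genes whose calls lay close to the threshold. Cyp27a1, a sterol 27-hydroxylase that draws on the same ferredoxin, had signals of 86.6 and 165 in NKT-modulated DC, against 435 and 393 in immature DC. It fell by 1.48 ± 0.33 (adjusted p = 0.0395), opposite in sign to Cyp11a1. Cyb5a, cytochrome b5, fell by 0.39 ± 0.09 (adjusted p = 0.0398). These calls were lost in 4 and 8 of 11 alternatives.

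Enzymes that convert steroids and oxysterols gave 2 rises and 1 fall among 21 measured genes, with a median of -0.01. These are 9.52% and 4.76%, against 5.99% higher and 6.87% lower of all named genes. Akr1c18, which inactivates progesterone, had signals of 107 and 118 in NKT-modulated DC, against 5.57 and 35.8 in immature DC, and rose by 2.02 ± 0.45 (adjusted p = 0.0400). The call was lost in 5 of 10 alternatives, and the size is not fixed, being 2.97 with a pseudocount of 1, 1.13 with 64, and 1.37 and 2.62 without either immature array. Ch25h, cholesterol 25-hydroxylase, read 2839 and 2843 in NKT-modulated DC, against 1468 and 1870 in immature DC and rose by 0.83 ± 0.09 (adjusted p = 0.00365). Hsd17b4, a peroxisomal enzyme of fatty acid and steroid metabolism, fell by 0.79 ± 0.08 (adjusted p = 0.00282). Without the intensity trend of the variance, Ch25h and Hsd17b4 lost their calls. Hsd3b1 and Cyp17a1, whose enzymes can act on pregnenolone, were dim in both groups, and Hsd3b6, another gene of the list, is not analysed here. Hsd3b1, which makes progesterone from it, read 5.70 and 16.3 in NKT-modulated DC and 5.30 and 16.9 in immature DC. Cyp17a1, a step towards androgens, read 12.1 and 9.45 in NKT-modulated DC, against 10.4 and 8.64 in immature DC. All 8 of these signals lay below the lower quartile of their arrays, and the differences were 0.00 and 0.06 with adjusted p = 0.996 and adjusted p = 0.900.

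Regulators of steroidogenic genes gave 2 rises and 2 falls among 21 measured, with a median of 0.01. Each count is 9.52% of the list, against 5.99% higher and 6.87% lower of all named genes. Gata3, a factor of the GATA family, had signals of 825 and 812 in NKT-modulated DC, against 16.5 and 18.2 in immature DC, and rose by 4.72 ± 0.19 (adjusted p = 1.03e-04). Its immature signals lay below the lower quartile, and the difference was 5.56 with a pseudocount of 1 and 3.51 with 64. Nr4a1, an orphan nuclear receptor that binds an extended AGGTCA site, read 1580 and 1221 in NKT-modulated DC, against 85.2 and 98.6 in immature DC and rose by 3.80 ± 0.16 (adjusted p = 1.11e-04). Prkacb, a catalytic subunit of protein kinase A, fell by 0.73 ± 0.16 and Cebpd by 0.58 ± 0.11; these calls were lost in 7 and 4 of 11 alternatives. Nr5a1, the steroidogenic factor SF-1, read 108 and 52.8 in NKT-modulated DC, against 94.7 and 13.1 in immature DC, overlapped between groups, and had a difference of 0.74 ± 0.63 (adjusted p = 0.543). It was named after its values were seen.

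Chaperones and coregulators of the glucocorticoid receptor gave 2 rises and 0 falls among 10 genes, and the median was 0.13. The rises are 20.0% of this list, against 5.99% higher of all named genes. Ncoa3, a nuclear receptor coactivator, rose by 0.74 ± 0.10 (adjusted p = 0.00637) and Stip1, a co-chaperone, by 0.59 ± 0.12 (adjusted p = 0.0309), and these calls were lost in 3 and 6 of 11 alternatives. Genes known to be induced by glucocorticoids gave 7 rises and 3 falls among 29, and the median was 0.12. These are 24.1% and 10.3% of the list, against 5.99% higher and 6.87% lower of all named genes. Both directions thus lay above those shares, and a response to glucocorticoids was not tested. Errfi1, Irs2 and Mertk rose by 1.37 ± 0.10, 1.27 ± 0.19 and 1.09 ± 0.09, and Klf4 fell by 1.10 ± 0.10. Irs2 lost its call in 3 of 11 alternatives. Among the 19 genes of this list that were not called, Tsc22d3, which encodes GILZ, read 199 and 159 in NKT-modulated DC, against 130 and 235 in immature DC, with a difference of 0.24 ± 0.26 (adjusted p = 0.648), and Fkbp5 read 931 and 903 in NKT-modulated DC, against 820 and 957 in immature DC, with 0.19 ± 0.09 (adjusted p = 0.287).

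**Figure D4:**
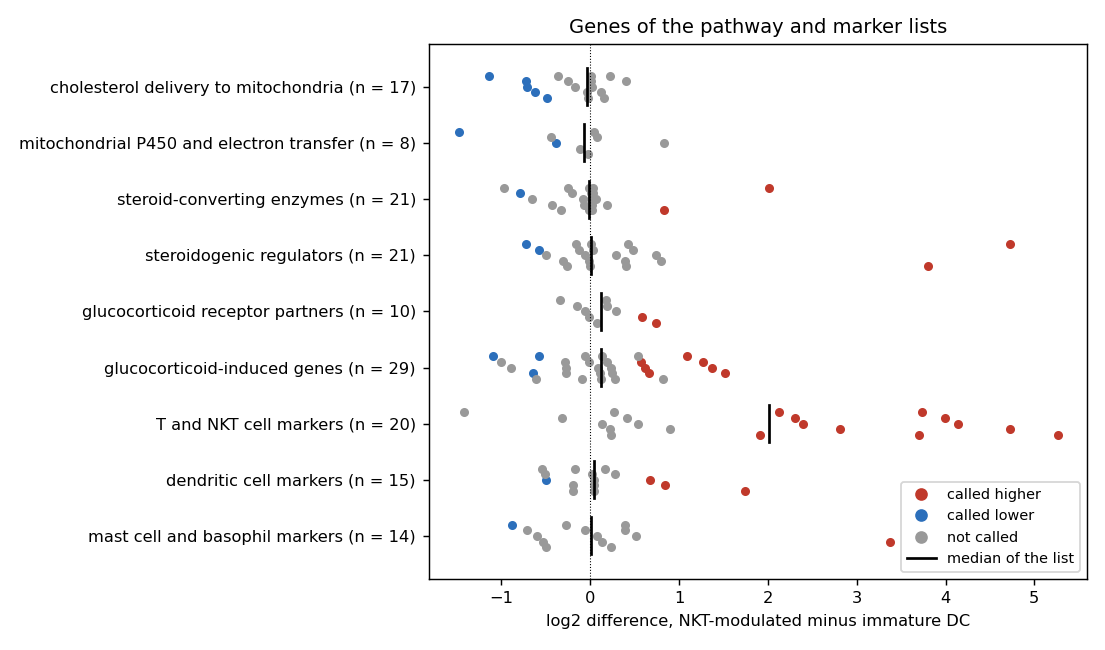
Log2 difference, NKT-modulated minus immature DC, of each measured gene of 6 pathway lists and 3 marker lists (points, spread vertically for legibility), with the median of each list as a bar. Medians of the pathway lists lie between -0.07 and 0.13, whereas that of the T and NKT cell markers is 2.02.

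Many markers of T and NKT cells were higher along with Cyp11a1, but not all. Among 20 T and NKT cell markers on the array were 11 rises and 0 falls, and the median was 2.02. The other 9 were not called, and differences over the list ran from -1.42 to 5.26. Of all named genes, 5.99% were called higher and 6.87% lower. Their summed signal was 8791 and 7084 on the NKT-modulated arrays, against 1779 and 1998 on the immature arrays, and 0 of the 20 were listed at 0 on an array. Cd3g, a chain of the T cell receptor complex, read 1401 and 1046 in NKT-modulated DC, against 19.0 and 15.4 in immature DC, and Thy1 read 1883 and 1309 in NKT-modulated DC, against 82.3 and 97.8 in immature DC. Il2rb, a chain of the receptors for IL-2 and IL-15, read 375 and 365 in NKT-modulated DC, against 7.89 and 6.94 in immature DC, and rose by 4.14 ± 0.23. With pseudocounts of 1 and 64 its difference was 5.55 and 2.70. Gata3 stands in this list too. The part of T or NKT cell RNA in the Cyp11a1 difference was not tested, and in a bulk sample RNA from another cell and RNA made by DC cannot be told apart. Mast cell and basophil markers, cells in which histamine is made, gave 1 rise and 1 fall among 14. Each is 7.14% of the list, near the shares of all named genes. Their summed signal was 1231 and 1049 in NKT-modulated DC, against 1232 and 1378 in immature DC. Hdc, histidine decarboxylase, was the rise, by 3.38 ± 0.22, and Kit the fall, by 0.88 ± 0.18. Hdc was 4.08 and 2.35 with pseudocounts of 1 and 64, and Kit lost its call in 4 of 11 alternatives. Among 15 DC markers 3 rose and 1 fell; Batf3 rose by 1.74 ± 0.09, Cd86 by 0.85 ± 0.10 and Irf8 by 0.67 ± 0.09, and Csf2ra, a chain of the GM-CSF receptor, fell by 0.50 ± 0.08. Csf2ra lost its call in 5 of 11 alternatives, Irf8 in 3 and Cd86 in 1. The DC marker sum was 96502 and 89285 in NKT-modulated DC, against 86123 and 84756 in immature DC. Such a sum is weighted to its brightest genes, and the purity of the cells was not tested.

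The genes whose pattern over the 4 arrays was most like that of Cyp11a1 were mostly cytokine genes. Likeness was the root mean square difference between log2 profiles, each centred on its own mean. It was 0.22 for Il3, 0.24 for Ifng, 0.24 for Il17a, 0.32 for Il4 and 0.38 for Ctla2a. This order depends on the pseudocount of 16, since the immature signals of several of these genes are smaller than it. With a pseudocount of 1 the difference was 9.04 for Cyp11a1, 9.38 for Il3 and 6.91 for Il17a. Il3 read 2128 and 1496 in NKT-modulated DC, against 2.56 and 1.09 in immature DC, and Il4 read 7559 and 5281 in NKT-modulated DC, against 30.1 and 22.1 in immature DC. Each of these 5 genes was high on both NKT-modulated arrays and low on both immature ones, as Cyp11a1 was, and with 4 arrays the likeness rests almost wholly on that 1 contrast. No partner came near this pattern, since the largest partner difference was 0.48. Whether the brightness of some partners limited their rise was not tested.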

How the data were processed

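RNA of 4 arrays was measured. Per the submitters' processing notes the arrays were analysed with GCOS; its version and how it scaled the arrays are not stated there. The deposited table holds intensity on a linear scale for 22690 probe sets. From these, 64 control probe sets were left out and log2(signal + 16) was quantile normalized, because array quartiles differed by up to 0.27. Groups were compared over all 22626 probe sets without a filter, with limma 3.58.1 in R 4.3.3 (lmFit, eBayes with intensity trend, two-sided, Benjamini-Hochberg adjustment over all probe sets); fits had 2 residual and 4.13 prior degrees of freedom. No detection calls were used, and the number of arrays limits the precision.

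Probe sets were named through the platform annotation: 20380 had 1 symbol, 691 several and 1555 none, and 20351 symbols were updated by gene ID through RefSeq. Members were read by every probe set, list genes by the brightest. Named are all members, up to 4 called genes of each list by smallest p, 6 fixed genes (Gata3, Nr4a1, Tsc22d3, Fkbp5, Cyp17a1, Hsd3b1) and the 5 genes most like Cyp11a1; exceptions are stated. Members and lists were chosen with earlier results of these data known. Promoter windows are RefSeq's, GRCm38.p6, for 5 member genes. The fit was also tried on simulated data, where it found few changes as small as those of the partners. Far fewer probe sets were changed there than were called here, so that rate does not carry over to these data. Tables and figures were made with Python 3.11.15, pandas 2.3.3 and matplotlib 3.10.9. Alternatives covered normalization, pseudocount, variance trend, a filter on dim probe sets (mean log2 of at least 7), each array left out, and the probe set standing for a gene.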

Additional observations from a re-analysis of the deposited data

How the results depend on the processing

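The Cyp11a1 difference kept its sign in all 11 alternatives. It was 7.03 after cyclic loess, 6.97 after median scaling, 9.04 and 5.04 with pseudocounts of 1 and 64, and 5.98 with dim probe sets removed, and ranged from 6.69 to 6.90 when 1 array was left out. The count of partner probe sets called higher was 1 as reported, 2 after median scaling, and 0 without normalization, with a pseudocount of 64, without the intensity trend and without any 1 of the 4 arrays (range 0 to 0); 0 were called lower throughout. Over the 6 pathway lists, 13 higher and 12 lower became 6 and 2 without the trend; leaving out 1 array gave 6 to 10 higher and 3 to 6 lower. By list, the counts over 12 alternatives ranged from 1 to 5 lower for cholesterol delivery (5 reported), 0 to 3 lower for P450 and electron transfer (2), 0 to 2 higher and 0 to 2 lower for steroid-converting enzymes (2 and 1), 2 to 4 higher and 0 to 2 lower for regulators (2 and 2), 0 to 2 higher for receptor partners (2), 3 to 9 higher and 1 to 5 lower for glucocorticoid-induced genes (7 and 3), 5 to 13 higher and 0 to 1 lower for T and NKT markers (11 and 0), 1 to 3 higher and 0 to 2 lower for DC markers (3 and 1), and 0 to 1 higher and 0 to 2 lower for mast cell markers (1 and 1). Of 33 named list and likeness genes that were called, 16 kept the call in every alternative run. Signs turned only for genes that were not called. Star 1418728_at was 0.065 after median scaling and ranged from -0.54 to 0.33 when 1 array was left out. Tspo 1438948_x_at was -0.047 without NKT-modulated replicate 1 and ranged from -0.083 to 0.31 when 1 array was left out. Hsd11b1 was -5.89e-04 without normalization and ranged from -0.044 to 0.46 when 1 array was left out. Nr3c1 1421866_at ranged from -0.016 to 0.10 when 1 array was left out. Hsd3b1 was -0.0092 after cyclic loess, and from -0.33 to 0.34 when 1 array was left out, and Tsc22d3 ranged likewise from -0.076 to 0.53. The cause was not tested. The median difference of all probe sets was -0.03 as reported, 0.08 after median scaling and -0.10 without normalization. No paired analysis was made, because the labels do not say whether arrays of the 2 groups were prepared in pairs. The replicate numbers used here follow the order of the array titles within each group and mark no pairs.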
